A study of Mus musculus with 8 samples.

Results

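Open chromatin was examined at 10 mouse genes of the complement system and of phagocytosis, named for their place in the removal of synapses by microglia: C1qa, C1qb, C1qc, C3, C4b, Itgam, C3ar1, Mertk, Axl and Gas6. They are 10 of 21887 protein-coding genes in the annotation, and the rule that names them uses their function and no measured value, although earlier results of these data were known when they were chosen. Not all are receptors, since the C1q genes, C3, C4b and Gas6 encode secreted proteins. Every deposited ATAC-seq peak that overlapped a gene body (mm10), extended by 10 kb on both sides, was taken, and overlapping peaks were joined over all libraries into regions. This gave 104 regions at the 10 genes, of 443327 regions in all and 295975 within reach of any protein-coding gene. C1qa, C1qb and C1qc lie side by side on chromosome 4 and share regions, so they were treated as 1 locus of 11 regions, and the 10 genes make 8 loci.

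ATAC-seq maps DNA that the Tn5 transposase can reach. The study holds 8 libraries from C57Bl/6J background mice, 2 in each of 4 groups, each made from an aliquot of 50000 nuclei of unsorted tissue. In the first pair of groups, mice were fed chow formulated with PLX5562 (PLX chow), which the labels say was given to remove microglia, or control chow made in parallel, starting at postnatal day 20. Their dorsal lateral geniculate nuclei (dLGN, the visual relay of the thalamus) were microdissected at postnatal day 32. In the second pair, untreated Fn14 KO mice and their Fn14 WT littermates were taken at postnatal day 27, and their coronal sections spanned hippocampus, cortex and dLGN. Fn14 is the receptor of the cytokine TWEAK, and the labels do not name the cells in which the gene is deleted. The labels do not say whether the 2 libraries of a group come from separate animals, so the spread between them may be technical. In such bulk tissue, fewer cells of a type and less open chromatin per cell cannot be told apart.

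Complement marks material for removal. C1q, a complex of the C1qa, C1qb and C1qc chains, starts the classical cascade, which cleaves C4 (encoded by C4b) and then C3, and fragments of C3 stay attached to their target. Itgam encodes CD11b, a chain of complement receptor CR3 on microglia and other myeloid cells, and C3ar1 encodes the receptor for the released fragment C3a. Mertk and Axl encode receptor tyrosine kinases of the TAM family, which recognise phosphatidylserine on dying cells or synapses through bridging ligands such as the product of Gas6. In the brain, C1q, Itgam and C3ar1 are known mainly from microglia, whereas Mertk and Gas6 are also used by astrocytes and other cells.

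RefSeq promoter windows (GRCm38.p6, the mm10 assembly; 250 bases before to 50 bases after the start) were found for 8 of the 10 genes, with no entry for C1qa and C4b. The windows of Gas6 (chr8:13494486-13494785 on the minus strand), Mertk (chr2:128698665-128698964 on the plus strand) and Axl (chr7:25788684-25788983 on the minus strand) are shown because these starts held a peak in all 8 libraries, with CpG dinucleotides in capitals.
Gas6: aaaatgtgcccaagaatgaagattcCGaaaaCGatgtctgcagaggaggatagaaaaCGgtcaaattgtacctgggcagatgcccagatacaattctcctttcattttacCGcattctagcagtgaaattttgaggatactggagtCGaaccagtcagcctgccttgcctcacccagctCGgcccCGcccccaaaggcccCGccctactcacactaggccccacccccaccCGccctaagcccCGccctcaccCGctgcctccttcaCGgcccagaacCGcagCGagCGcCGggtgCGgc
Mertk: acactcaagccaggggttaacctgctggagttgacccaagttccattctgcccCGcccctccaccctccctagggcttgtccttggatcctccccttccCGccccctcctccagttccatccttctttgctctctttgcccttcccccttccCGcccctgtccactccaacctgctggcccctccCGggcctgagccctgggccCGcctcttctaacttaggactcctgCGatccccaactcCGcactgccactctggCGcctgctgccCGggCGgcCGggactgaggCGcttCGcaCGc
Axl: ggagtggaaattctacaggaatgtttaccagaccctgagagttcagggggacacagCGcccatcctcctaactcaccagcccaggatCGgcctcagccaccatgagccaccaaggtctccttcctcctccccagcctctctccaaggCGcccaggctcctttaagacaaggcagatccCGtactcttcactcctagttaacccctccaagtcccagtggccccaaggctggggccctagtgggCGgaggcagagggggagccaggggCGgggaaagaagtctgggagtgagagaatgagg
Gas6 held 17 CpGs, an observed to expected ratio of 0.7 (the CpG count over that given by the C and G content), and Mertk 14 CpGs with a ratio of 0.5. Axl held only 6 CpGs with a ratio of 0.22.

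The windows of C1qc (chr4:136892865-136893164 on the minus strand), C3ar1 (chr6:122856108-122856407 on the minus strand) and C3 (chr17:57228087-57228386 on the minus strand) are shown because they matched a motif, with the matches in capitals. They held a peak in some libraries or in none, as did the windows of C1qb and Itgam, which matched no motif and are not shown.
C1qc: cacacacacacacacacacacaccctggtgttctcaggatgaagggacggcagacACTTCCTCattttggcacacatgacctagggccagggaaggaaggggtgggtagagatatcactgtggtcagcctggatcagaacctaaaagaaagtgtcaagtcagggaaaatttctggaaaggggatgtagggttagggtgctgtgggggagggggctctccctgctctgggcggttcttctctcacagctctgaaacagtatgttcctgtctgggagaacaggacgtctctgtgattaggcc
C3ar1: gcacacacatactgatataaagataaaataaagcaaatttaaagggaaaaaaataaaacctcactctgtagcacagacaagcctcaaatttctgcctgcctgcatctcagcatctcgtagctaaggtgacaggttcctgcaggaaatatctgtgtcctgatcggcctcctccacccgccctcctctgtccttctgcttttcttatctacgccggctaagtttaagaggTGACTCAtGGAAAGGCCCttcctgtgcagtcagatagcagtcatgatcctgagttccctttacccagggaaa
C3: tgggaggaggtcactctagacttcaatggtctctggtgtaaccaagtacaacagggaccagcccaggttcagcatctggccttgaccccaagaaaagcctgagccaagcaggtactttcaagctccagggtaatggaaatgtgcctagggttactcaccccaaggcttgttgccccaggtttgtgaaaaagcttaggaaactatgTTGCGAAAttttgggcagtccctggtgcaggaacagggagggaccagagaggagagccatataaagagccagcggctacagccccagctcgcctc
6 motifs of factors of myeloid cells and inflammation were searched on both strands. PU.1 is a transcription factor of myeloid cells, and its motif GAGGAAGT matched once in the C1qc window, on the opposite strand from position −195 relative to the start, as in 3.2% of all 32851 windows. The AP-1 motif TGANTCA and the NF-kB motif lay side by side in C3ar1, from positions −22 and −14, as they occur in 7.81% and 4.79% of windows, and the capitals there cover both, the second on the opposite strand. The C/EBP motif TTGCNNAA matched in C3 from position −45, as in 10.8% of windows. The interferon response motif (3.44% of windows) and the MEF2 motif (3.69%) matched in none of the 8 windows. The windows of C1qb, Itgam, Mertk, Axl and Gas6 matched none of the 6 motifs.

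Across all windows, 88.6% of those with a CpG ratio over 0.6 held a peak in all 8 libraries, as did 49.8% of those between 0.4 and 0.6 and 11.2% of those under 0.4. Axl is thus 1 of the CpG-poor starts with a peak in every library. The C3 window (ratio 0.14) and the Itgam window (0.32) held no peak in any library. The C1qc window (0.14) held a peak in 5 libraries, C1qb (0.25) in 3 and C3ar1 (0.32) in 2.

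**Figure D1:**
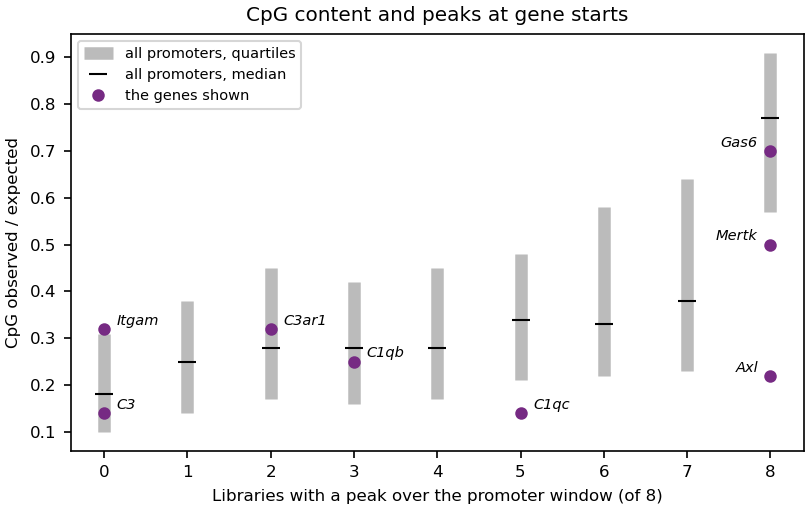
CpG observed to expected ratio of the promoter window (vertical axis) against the number of libraries, of 8, with a peak over that window (horizontal axis). Grey bars give the quartiles and black lines the median over all 32851 windows, and purple points are the 8 genes with a window. Axl, at 0.22, and Mertk, at 0.5, lie below the bar for windows with a peak in all 8 libraries, which starts at 0.57.

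The deposited lists held 248989 to 264136 peaks in PLX chow, 267377 to 285771 in control chow, 299816 to 299822 in KO and 256323 to 261201 in WT. Both KO lists stand at the limit of 300000 peaks that the authors' pipeline set and are the longest of the 8. Their weakest peak had a −log10 p of 2.85 in KO 1 and 2.05 in KO 2, against 2 in the other 6 libraries, so a weak peak that passed the authors' p threshold could still be missing from a KO list. Values at a region are the authors' −log10 p of the strongest peak there, on a scale set by each library, and its fold enrichment over local background. To compare libraries, the regions of each were ranked by −log10 p within lists cut to the length of the shortest, 192168 regions, and expressed as a rank percentile from 0 (not in the list) to 100 (strongest). The lists carry no read counts, and sequencing depth is therefore unknown. No pair of libraries had identical lists.

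Of the 104 regions, 18 had a peak in all 8 libraries and 40 in only 1. Mertk, Axl, Gas6 and C3 each held several regions shared by all libraries (5, 4, 5 and 3), C1q held 1, and C4b, Itgam and C3ar1 held 0. The start of Mertk (chromosome 2, 128697948 to 128699749) was the highest-ranked region of the 10 genes outside other genes, with a −log10 p of 97.6 and 121 in PLX chow, 105 and 109 in control chow, 86.9 and 68.3 in KO and 73.2 and 50.1 in WT. All 8 libraries placed it between the 90.9 and 94.5 rank percentile. The start of Axl (chromosome 7, 25787859 to 25789353) had 61.9 and 73.5 in PLX chow, 77.9 and 53.4 in control chow, 43.3 and 36.4 in KO and 61.2 and 36.9 in WT. The start of Gas6 (chromosome 8, 13493838 to 13494623) had 32.5 and 45.8 in PLX chow, 54.3 and 37.3 in control chow, 53.2 and 28.8 in KO and 48.7 and 36.5 in WT. These starts carried a peak in every library of every group. The C3 start had no peak in any library, and the strongest C3 region lay inside the gene (chromosome 17, 57214559 to 57215471).

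C4b, Itgam and C3ar1 ranked far lower. C4b had 2 regions in all, and the one over the upper end of the gene (chromosome 17, 34743737 to 34744101) had no peak and 2.81 in PLX chow, 3.43 and no peak in control chow, 8.41 and no peak in KO and 6.61 and no peak in WT. Each group thus had a peak there in at most 1 library. Neither C4b, Itgam nor C3ar1 had a region among the 50000 strongest of any library (called selected regions below). Mertk had 2 to 3 selected regions per library, Axl 2 to 4, Gas6 2 to 4 and C3 0 to 2.

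**Figure D2:**
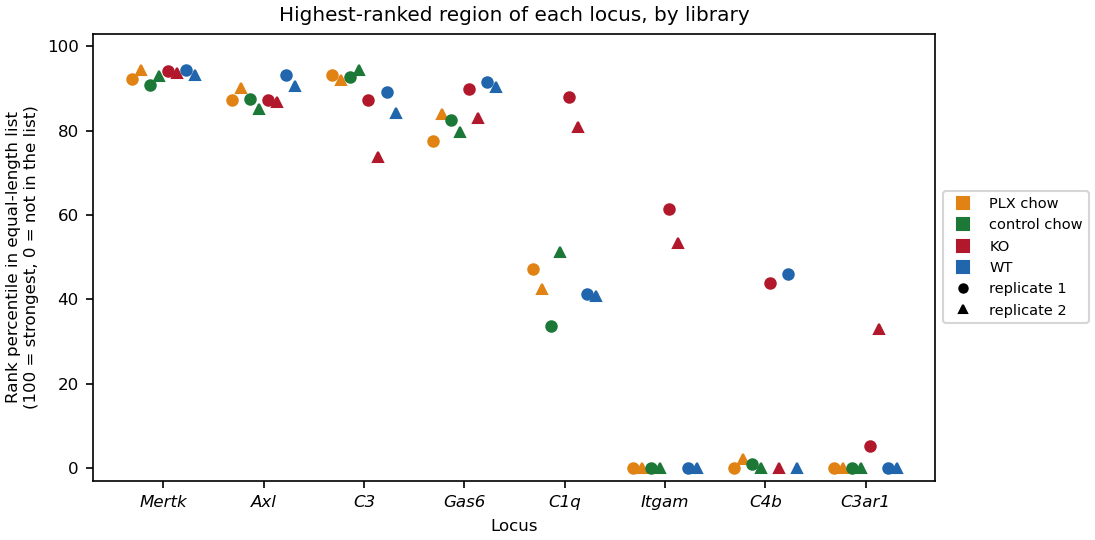
Rank percentile in the lists of equal length (vertical axis; 100 is the strongest region, 0 is not in the list) of the highest-ranked region of each locus that overlaps no other protein-coding gene (horizontal axis), with 1 point per library. Colours mark the 4 groups and shapes the replicate; Mertk lies between 90.9 and 94.5 in all libraries, while the C1q region reaches 88.0 and 81.0 in KO against 41.3 and 40.9 in WT.

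The first comparison set Fn14 KO against WT sections. Over all regions near genes, 4.87% had a peak in both KO libraries and no WT library, and 1.48% the reverse. These shares stand beside the counts of each locus below. Of the 10 regions with a peak in KO alone, 4 lay at the C1q locus and 2 at Itgam, and a further C1q region present in all libraries had its 2 highest values in KO. A region 880 bp beyond the upper end of C1qc, between C1qc and C1qa (chromosome 4, 136893816 to 136894439), had 46.0 and 25.9 as −log10 p in KO, against 6.04 and 5.36 in WT, and a fold of 8.30 and 6.21 in KO, against 3.01 and 2.96 in WT. It was the only C1q region with a peak in all 8 libraries, and the dLGN libraries lay near WT, with 9.40 and 7.92 in PLX chow and 7.68 and 10.6 in control chow. Both KO values exceeded those of the other 6 libraries. Its rank percentile was 88.0 and 81.0 in KO, against 41.3 and 40.9 in WT.

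4 of the 9 C1q regions with a peak in any section library had one in both KO libraries and in neither WT library. The reverse held at 0, and the shares over all regions near genes were 4.87% and 1.48%. The region over the upper end of C1qa (136898622 to 136899012) had 5.74 and 7.11 in KO and no peak in the other 6 libraries. A region 8993 bp from C1qa (136907837 to 136908229) had 27.7 and 7.11 in KO and no peak in WT, while 3 of the 4 dLGN libraries had 2.71 to 3.83. 2 further regions lay beyond the lower end of C1qb. The nearer, at 2811 bp (136877061 to 136877315), had 24.5 and 6.56 in KO and no peak in WT, and also 5.63 and 6.69 in control chow with no peak in PLX chow. The farther, at 4754 bp (136875123 to 136875372), had 5.10 and 2.78 in KO and no peak in the other libraries.

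The starts of C1qc and C1qb, the C1q genes with a promoter window, did not separate the genotypes. C1qa had no window, so its start was not assessed. The C1qc start (136892859 to 136893214), which covers the PU.1 motif shown above, had 10.5 and 5.00 in KO and 7.2 and 2.83 in WT. The C1qb start (136886045 to 136886502) had 6.68 and no peak in KO and 9.05 and no peak in WT. KO 1 exceeded KO 2 at most of these regions, and 9 and 6 of the 11 C1q regions had a peak in KO 1 and KO 2, against 3 in each WT library. In lists cut to equal length these counts were 8 and 5 in KO and 3 in each WT library, and 3 of the C1q regions called for KO kept the call.

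**Figure D3:**
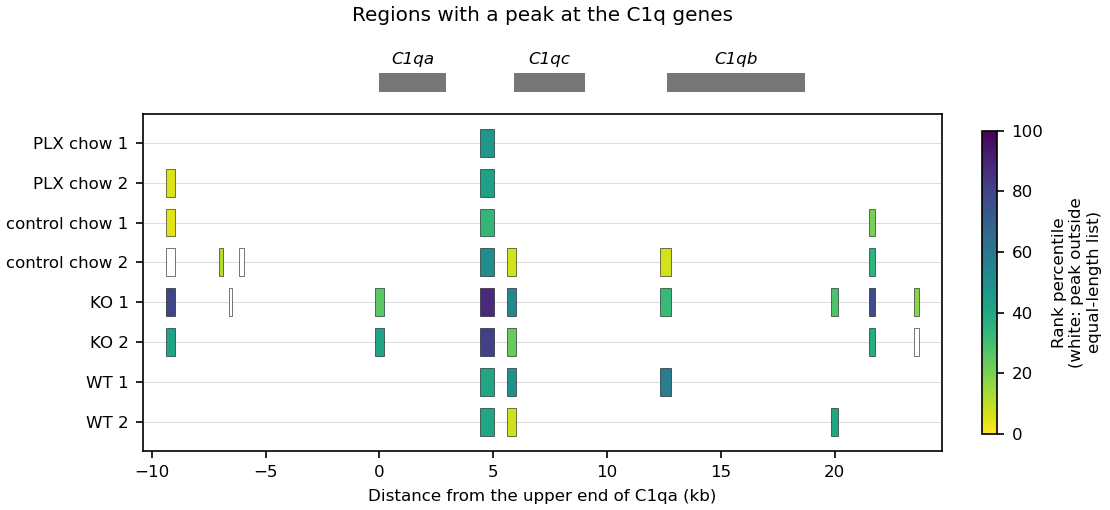
Regions with a peak at the C1q genes in each of the 8 libraries (rows), by distance in kb from the upper end of C1qa (horizontal axis), with the 3 genes as grey bars on top. Colour gives the rank percentile in lists of equal length and white boxes are peaks outside those lists; 9 and 6 regions have a peak in KO 1 and KO 2, against 3 in each WT library, and the region between C1qa and C1qc is darkest in KO.

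Among the complement receptors, Itgam had 2 regions with a peak in sections, both inside the gene, and both had a peak in both KO libraries and in no other library. The stronger (chromosome 7, 128105331 to 128105537) reached a −log10 p of 13.6 and 9.47 in these, and the weaker (128089208 to 128089445) 2.85 and 7.11. The only other Itgam region was found in control chow 1 alone, with 12.4. In lists of equal length 1 of the 2 kept the call. At C3ar1, 1 of 8 regions was called for KO, 6753 bp beyond the upper end (chromosome 6, 122862910 to 122863353), with 4.14 and 6.02 in KO and no peak in the other 6 libraries. The C3ar1 start had a peak in KO 2 (6.02) and control chow 1 (3.83) only.

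C3 went the other way at 1 of its 6 section regions. The region inside the gene at 57219942 to 57220146 had no peak in KO, against 6.55 and 8.42 in WT, and it had 9.95 and 11.0 in PLX chow and 14.8 and 12.1 in control chow. Its neighbour at 57219230 to 57219580 had 9.44 and 13.7 in KO and 3.00 and 6.08 in WT, with ranks of 48.4 and 65.8 in KO, against 7.0 and 48.2 in WT. A C3 region 3150 bp beyond the start (57231286 to 57231845) had 3.57 and no peak in KO and 4.83 and 6.67 in WT. At C4b, 0 regions were called in either direction.

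The TAM genes showed calls in both directions. Of 27 Mertk regions, 2 were called for KO and 1 for WT, where 4.87% and 1.48% of all regions near genes were. Of 25 ranked Mertk regions, ranks were higher in KO at 4 and lower at 4, where the shares over all regions were 12.9% and 11.3%. The Mertk region at 128737783 to 128738414 had 11.1 and 2.72 in KO and no peak in WT, but all 4 dLGN libraries had a peak there (9.09 to 18.8). The other called for KO (128716503 to 128716941) had 3.26 and 4.05 in KO and no peak in WT, with 3.88 to 6.12 in dLGN. The Mertk region called for WT (128715755 to 128716348) had no peak in KO and only 2.07 and 3.29 in WT, the first of which is below the weakest peak of KO 1, while dLGN libraries had 11.3 to 17.2. All 3 Mertk regions called between genotypes thus had a peak in every dLGN library. Ranks were lower in KO at the Mertk regions 128704545 to 128705117 (28.5 and 33.6 in KO, 69.3 and 41.3 in WT) and 128796546 to 128796901 (0 and 11.5 in KO, 36.9 and 35.7 in WT).

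At Axl, a region inside the gene (25781248 to 25782155) had 22.9 and 24.2 in KO and 11.7 and 11.9 in WT, with ranks of 75.3 and 79.6 in KO, against 66.3 and 70.6 in WT, and the Axl start ranked lower in KO (87.2 and 86.8, against 93.3 and 90.5 in WT). At Gas6, most of which also lies in the annotated span of Tmem255b, 1 of 19 regions was called for KO (13493037 to 13493413; 4.44 and 6.57 in KO, no peak in WT) and 1 for WT (13482489 to 13482749; no peak in KO, 4.55 and 3.36 in WT). A region 9165 bp beyond the Gas6 start (13503700 to 13504646) had 10.5 and 6.02 in KO and 14.7 and 16.6 in WT, with ranks of 52.9 and 32.9 in KO, against 72.2 and 78.1 in WT. A region inside Gas6 (13467069 to 13467566) ranked higher in KO, with 20.1 and 12.7 in KO and 8.78 and no peak in WT.

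Over the 10 genes, 10 of 81 regions (12.3%) had a peak in both KO libraries and in neither WT library, where 4.87% of all regions near genes did, and 3 (3.7%) were found in WT alone, where the background was 1.48%. In the 10 regions called for KO the −log10 p was 2.72 to 27.7 with a median of 6.29, and 2 of them were among the selected regions of any library. Ranks did not overlap and were higher in KO at 15 of 74 regions (20.3%), where the background was 12.9%, and lower in KO at 10 (13.5%), where it was 11.3%. The background by rank, here and below, is all regions, near genes or not, whereas that by presence is regions near genes. The median rank difference, KO minus WT, was −1.2 at the 10 genes and 0.0 over all regions, while at the C1q locus it was 21.7. In lists cut to equal length, 6 regions were called for KO and 4 for WT. Leaving out a library loosens the rule, and a region called with all libraries stays called. The counts were 18 for KO and 5 for WT without KO 1, and 14 and 5 without KO 2. They were 13 and 13 without WT 1, and 12 and 8 without WT 2. Of those called for KO, 4 to 5 lay at the C1q locus and 2 at Itgam, which the rule does not let fall below 4 and 2. By rank, higher against lower counts were 27 and 15 without KO 1, 26 and 17 without KO 2, 18 and 22 without WT 1, and 16 and 24 without WT 2. No share over all regions is given for the cut lists or with a library left out. These counts therefore cannot be set against the shares above. With 2 libraries against 2 the smallest exact 2-sided permutation p is 0.333, so no region can pass that test.

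Selected regions were more numerous in both KO libraries at C1qa, C1qb, C1qc and Axl and fewer at 0 of the 10 genes. C1qa and C1qb had 2 and 1 in KO and 0 in both WT libraries, C1qc had 1 and 1 in KO and 0 in WT, and Axl had 4 and 4 in KO and 3 and 3 in WT. Of the 17346 genes near at least 1 selected region, 7.41% had more and 5.29% fewer in KO. Of the 10 genes, 7 were in that set, and the C1q genes entered it only through the KO libraries and share their regions, so their count adds nothing to the values above.

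At genes used as microglial markers the shares were near the background. Over 12 such genes, 6 of 110 regions (5.45%) were called for KO and 1 (0.909%) for WT, and these genes had 16 selected regions in each KO library and 14 and 15 in WT. Tmem119 and Gpr34 had 0 selected regions in all 8 libraries, and Csf1r had 1 in KO 1 and 0 in the other libraries. Genes of border macrophages, which also express C1q, had 5 and 8 selected regions in KO and 6 and 4 in WT. The 5 genes used for blood monocytes and neutrophils, which carry Itgam, had 0 in all section libraries. They held only 4 regions over all 8 libraries, and nothing is read from this 0. The part of the cell makeup in the C1q and Itgam values was not tested.

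**Figure D4:**
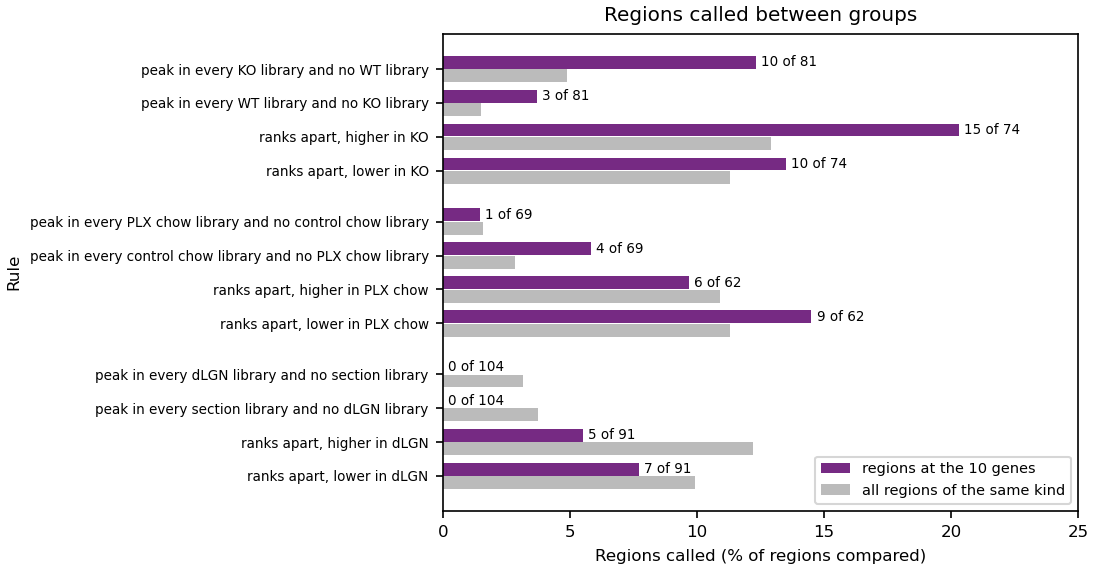
Share of regions called between groups (horizontal axis, percent of regions compared) for the 10 genes (purple, with counts) and for the background (grey), by rule and comparison (rows). The background is regions near any protein-coding gene for the presence rules, and all regions, near genes or not, for the rank rules. The 2 KO rows of the top block stand above their grey bars (12.3% against 4.87% by presence, 20.3% against 12.9% by rank), and both presence rules of the tissue block are at 0 of 104.

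The second comparison set PLX chow against control chow in dLGN, which asks what changes where microglia are removed. Peaks at the myeloid members were sparse under both diets, and 1 region of theirs was called between the diets. Of all regions near genes, 1.55% were called for PLX chow and 2.82% for control chow. The C1q locus had a peak at 1 and 2 of 11 regions in PLX chow, against 3 and 7 in control chow. The region 2811 bp from C1qb was called for control chow, with no peak in PLX chow, against 5.63 and 6.69 in control chow. The C1qc and C1qb starts had no peak in PLX chow and a peak of 3.47 each in control chow 2 alone. The strongest C1q region, between C1qc and C1qa, did not separate the diets, with 9.40 and 7.92 in PLX chow and 7.68 and 10.6 in control chow. Over the 12 regions of Itgam and C3ar1, 0 and 1 had a peak in PLX chow, against 3 and 0 in control chow, so the diets overlapped.

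At the other genes the calls were scattered and weak. 1 C3 region (57223431 to 57223727) was called for PLX chow, with 3.81 and 4.40 in PLX chow and no peak in control chow. Mertk had 2 regions called for control chow (128743478 to 128743632 and 128796546 to 128796901), at 2.97 to 4.94, and Gas6 had 1 (13485738 to 13486071), with no peak in PLX chow and 5.63 and 4.10 in control chow. By rank, the widest gaps lay at Gas6 in both directions. The Gas6 region 13467069 to 13467566 had 16.4 and 12.5 in PLX chow and 5.15 and 6.63 in control chow, and the Gas6 region 13492267 to 13492554 had no peak and 4.75 in PLX chow and 9.39 and 13.5 in control chow. A C3 region (57222725 to 57222978) had 9.79 and 7.31 in PLX chow and no peak and 6.01 in control chow. The Mertk regions with lower ranks in PLX chow included 128746895 to 128747331 (4.86 and 7.32 in PLX chow, 11.8 and 11.3 in control chow) and 128758754 to 128759300 (2.79 and 2.81 in PLX chow, 6.73 and 3.88 in control chow). The 2 Mertk regions with higher ranks in PLX chow, 128715755 to 128716348 and 128761233 to 128761923, are given with the tissues. A Mertk region shared by all libraries, at 128738528 to 128739325, had 8.78 and 39.4 in PLX chow and 43.3 and 49.1 in control chow.

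Over the 10 genes, 1 of 69 regions (1.45%) was called for PLX chow, where the background was 1.55%, and 4 (5.8%) for control chow, where it was 2.82%. The 4 called for control chow had a −log10 p of 2.97 to 6.69 with a median of 4.85, not far above the calling threshold of 2. Without PLX chow 1 the counts were 7 for PLX chow and 4 for control chow, without PLX chow 2 they were 4 and 7, without control chow 1 they were 2 and 12, and without control chow 2 they were 3 and 13. Ranks were higher in PLX chow at 6 of 62 regions (9.68%), where the background was 10.9%, and lower at 9 (14.5%), where it was 11.3%. Without PLX chow 1 these were 23 higher and 11 lower, without PLX chow 2 they were 12 and 16, without control chow 1 they were 10 and 24, and without control chow 2 they were 12 and 18. Here too, no share over all regions is given with a library left out. The median rank difference, PLX chow minus control chow, was −0.3 at these genes and 0.0 over all regions. Selected regions differed between the diets at 0 of the 10 genes in either direction, while 2.55% of all genes had more and 3.04% fewer in PLX chow. Here too the smallest exact permutation p is 0.333. Over the 12 microglial marker genes, 0 of 72 regions were called for PLX chow and 9 (12.5%) for control chow, and 37 and 40 of 128 regions had a peak in PLX chow, against 50 and 49 in control chow. Their part in the C1q values was not tested.

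The last comparison was between dLGN (4 libraries) and sections (4 libraries). Tissue, age and chow differ together here and cannot be told apart, and the libraries of PLX chow and of Fn14 KO are included. No region was found in all libraries of 1 tissue and none of the other, 0 of 104 for dLGN and 0 of 104 for sections, where the background was 3.13% and 3.71%. Ranks were higher in every dLGN library at 5 of 91 regions (5.49%), where the background was 12.2%. These 5 regions lay at Mertk (4) and C3 (1). The Mertk region at 128761233 to 128761923 had 45.1 and 51.4 in PLX chow and 28.0 and 40.4 in control chow, against 2.85 and no peak in KO and 4.97 and no peak in WT. Another Mertk region (128715755 to 128716348) had 11.3 to 17.2 in the 4 dLGN libraries, against no peak in KO and 2.07 and 3.29 in WT, and 1 more, farther into the gene (128786174 to 128787115), had 16.9 to 28.0 in dLGN, against 3.26 to 8.42 in sections. All 3 ranked higher in every dLGN library than in any section library. The main C3 region (57214559 to 57215471) had 110 and 89.6 in PLX chow and 129 and 135 in control chow, against 43.9 and 18.6 in KO and 39.2 and 22.6 in WT, with ranks of 92.0 to 94.5 in dLGN and 73.8 to 89.3 in sections. Its mean rank difference of 9.5 was the smallest of the 5, and the −log10 p scale itself was higher in dLGN, where the weakest of the 50000 strongest regions had 25.2 to 33.0, against 13.4 to 21.5 in sections.

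Other regions ranked lower in dLGN, 7 of 91 (7.69%), where the background was 9.92%. The Axl region inside the gene at 25781248 to 25782155 had ranks of 40.6 to 51.1 in dLGN and 66.3 to 79.6 in sections. 3 Mertk regions did the same, among them 128709209 to 128709751 (35.3 to 66.6 in dLGN, 70.7 to 78.1 in sections) and 128704545 to 128705117 (0 to 11.0 in dLGN, 28.5 to 69.3 in sections). The C1qc start had no peak in 3 dLGN libraries and 3.47 in control chow 2, against 2.83 to 10.5 in sections. A Gas6 region in the span of Tmem255b (chromosome 8, 13461850 to 13462673) had ranks of 49.1 to 74.2 in dLGN and 74.4 to 85.1 in sections. The start of Mertk itself overlapped, with 90.9 to 94.5 in dLGN and 93.3 to 94.5 in sections.

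**Figure D5:**
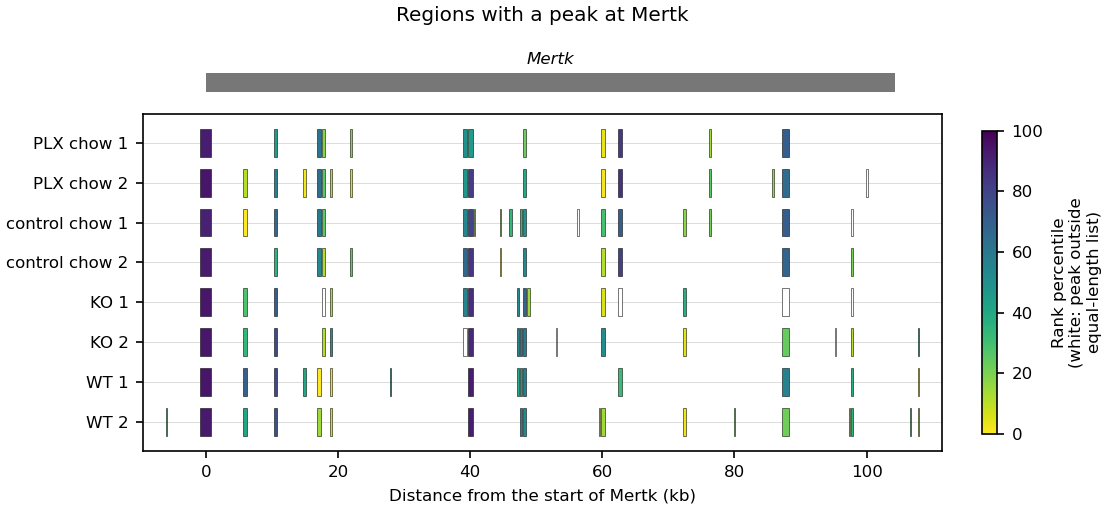
Regions with a peak at Mertk in each of the 8 libraries (rows), by distance in kb from the gene start (horizontal axis), with the gene as a grey bar on top. Colour gives the rank percentile in lists of equal length and white boxes are peaks outside those lists; the start is dark in every row, while a region inside the gene ranks 70.7 to 85.7 in the 4 dLGN rows and 0 to 31.7 in the 4 section rows.

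Ranks did not overlap and were higher in dLGN at 5 of 91 regions (5.49%), where the background was 12.2%, and lower at 7 (7.69%), where it was 9.92%. Each of these 12 regions had the smallest exact 2-sided permutation p that 4 libraries against 4 allow, 0.0286, and a Benjamini-Hochberg adjusted p of 0.129 over 405334 regions, so none passed. Over all regions 0 had an adjusted p under 0.05, while 89789 (22.2%) had an unadjusted p under 0.05. Regions at the smallest p all share the same adjusted value, which their number sets. That none passed therefore does not show that the tissues were alike, and the same limit holds for the gene test below. The median rank difference, dLGN minus sections, was −4.4 at the 10 genes and −0.4 over all regions. Selected regions per gene gave 0 of 10 genes apart in either direction, where 5.91% of all genes had more and 7.24% fewer in dLGN, and 0 of the 17346 genes passed the adjusted exact permutation test (2281 unadjusted). Microglial markers had a peak at 37 to 50 of 128 regions in dLGN and 61 to 74 in sections, and ranked lower in dLGN at 25 of 119 regions (21%) and higher at 7 (5.88%). Astrocyte markers had 23 to 25 selected regions in dLGN and 24 to 29 in sections. The part of cell makeup in the Mertk, C3 and C1q values was not tested.

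A list of 62 other genes of complement, its regulators, engulfment receptors and their signalling was described in the same way, and 54 of them had at least 1 selected region. Between genotypes 6 had more selected regions in both KO libraries and 6 fewer, where 7.41% and 5.29% of all genes did, and nothing particular to the list is read from these counts. Adgrb1, which encodes the phosphatidylserine receptor BAI1, had 9.5 ± 0.71 selected regions in KO libraries and 5.0 ± 2.83 in WT libraries (SD, n = 2 each, as for the genes that follow). Dock1, an activator of Rac in engulfment, had 9.0 ± 1.41 in KO and 6.5 ± 0.71 in WT, and Nptx2, which encodes a neuronal pentraxin, 2.5 ± 0.71 in KO and 1.0 ± 0.0 in WT. Among those with fewer, Megf10, an engulfment receptor of astrocytes, had 6.5 ± 0.71 in KO and 10.0 ± 1.41 in WT, Itgav, the integrin αv chain, 6.5 ± 0.71 in KO and 9.5 ± 0.71 in WT, and Elmo1, the partner of Dock1, 25.5 ± 0.71 in KO and 28.5 ± 2.12 in WT. By presence, 37 of 843 regions (4.39%) were called for KO and 18 (2.14%) for WT, so that the share for KO was near the background of all genes.

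Between diets 0 of the 62 had more selected regions in PLX chow and 2 had fewer, where the shares over all genes were 2.55% and 3.04%. Among them Gulp1, an engulfment adaptor, had 3.5 ± 0.71 in PLX chow and 5.0 ± 0.0 in control chow (SD, n = 2 each). Between tissues 4 had more and 3 fewer in dLGN, where the shares over all genes were 5.91% and 7.24%. The lipid exporter gene Abca1 had 7.5 ± 1.0 in dLGN and 4.5 ± 0.58 in sections, and Pros1, which encodes the TAM ligand protein S, 4.0 ± 0.0 in dLGN and 2.5 ± 0.58 in sections. C8a, of the terminal complement complex, had 1.0 ± 0.0 in dLGN and 0.0 ± 0.0 in sections. Among those with fewer, the integrin gene Itgb5 had 2.0 ± 0.82 in dLGN and 6.0 ± 1.83 in sections, and the nucleotide receptor gene P2ry6 0.0 ± 0.0 in dLGN and 1.25 ± 0.5 in sections. Tyrobp, the adaptor of microglial receptors also called DAP12, had 0.0 ± 0.0 in dLGN and 1.0 ± 0.0 in sections (SD, n = 4 each). The 6 genes named had an adjusted p of 0.217 each in the exact permutation test, and 0 of 62 passed.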

How the data were processed

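Peaks of 8 ATAC-seq libraries were deposited as narrowPeak lists. The authors ran the ENCODE ATAC-seq pipeline on mm10 with paired-end reads, multimapping 0, a p threshold of 0.01 and a limit of 300000 peaks, per library, per the deposited pipeline instructions and names. DeepTools 3.5.0 is named in the submitters' processing notes, and the peak caller is not given in the sources used here. Fold enrichment (a ratio over local background), −log10 p-value and −log10 q-value of each peak are the authors' own, as deposited. Here, peaks overlapping by 1 bp were merged per library (Python 3.11.15, pandas 2.3.3), joined over libraries, and assigned to gene bodies extended 10 kb (RefSeq GRCm38.p6). Regions were called for a group where all of its libraries and none of the other's had a peak, or when rank percentiles did not overlap. Regions named were those called by presence, those at gene starts, the highest-ranked of each gene and, of those apart by rank, the 5 with the largest difference per direction, and some others were chosen after their values were seen. Of the 62 other genes, 3 per direction with the largest difference are named, except that 1 is not reported here. Tissues were compared with exact 2-sided permutation tests, adjusted by the Benjamini-Hochberg method over all regions or genes. The code was tested on simulated data. Alternatives changed the window, overlap, q-value limit, ranking, list length, selected regions, replicate block and libraries kept. The members and gene lists were chosen with earlier results of these data known.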

Additional observations from a re-analysis of the deposited data

Results flagged for a closer look

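One Mertk region, inside the gene (chromosome 2, 128738528 to 128739325), had a library far from the other 3 of its tissue. Its rank percentile was 45.1 in PLX chow 1 and 81.8 in PLX chow 2, against 79.0 and 84.0 in control chow, and the gap to the nearest library was 0.871 of the range of the 4 dLGN libraries, over Dixon's 95% limit for 4 values. The −log10 p was 8.78 in PLX chow 1, 39.4 in PLX chow 2 and 43.3 and 49.1 in control chow. It was 1 of 44 groups of 4 libraries tested, of which chance flags about 1 in 20.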

How the results depend on the processing

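No share over all regions is given for the alternatives in this section, so their counts have no background beside them. Leaving out a library loosens the rules, which leave regions already called in place. Most counts rose, and that none fell is no sign of stability. Between genotypes these counts ran from 12 to 18 regions called for KO (10 with all libraries), 5 to 13 for WT (3), 16 to 27 with ranks higher in KO (15) and 15 to 24 lower (10). Between diets they ran from 2 to 7 for PLX chow (1), 4 to 13 for control chow (4), 10 to 23 with higher ranks (6) and 11 to 24 with lower ranks (9). Between tissues they ran from 0 to 2 for dLGN, 0 to 1 for sections, 5 to 7 with higher ranks and 7 to 11 with lower ranks. Gene bodies alone gave 6 regions called for KO, as did lists cut to the shortest. Windows of 50 kb hold more regions, and gave 31 higher and 20 lower in KO, 2 called for PLX chow with 12 higher and 20 lower, and 3 called for dLGN and 4 for sections with 14 higher and 18 lower. Ranking 100000 regions gave 8 higher and 4 lower in KO, and 4 lower in PLX chow. Control chow against WT alone, 2 libraries each, gave 6 called for control chow, 4 for WT, 11 higher and 18 lower. The selected regions of the 10 genes gave 0 in the tissue test under each alternative, adjusted or not. In the test as reported 0 of all 17346 genes passed after adjustment, so the adjusted 0 is not particular to the 10 genes. With control chow against WT alone the unadjusted 0 was certain, since the smallest exact 2-sided permutation p of 2 against 2 is 0.333. Deviations of same-numbered libraries had correlations of 0.155 between the genotypes and −0.011 between the diets, and with 2 pairs each and no label that ties the numbers to animals or days, they were not taken to pair the libraries. The replicate number as a block gave 10, 3, 18 and 12 between genotypes and 1, 4, 8 and 13 between diets, in the order above. Depth is unknown, and a missing peak says only that none is in the deposited list, which in KO ends at a −log10 p of 2.85 (KO 1) and 2.05 (KO 2).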

Other observations

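Several strong regions within 10 kb of these genes lie over neighbours. The strongest region in the Axl window (chromosome 7, 25754241 to 25755850), 650 bp from Axl, overlaps Hnrnpul1, with a −log10 p of 198 and 212 in PLX chow, 309 and 245 in control chow, 204 and 212 in KO and 190 and 141 in WT. The strongest region of the C3ar1 window (chromosome 6, 122843832 to 122844175) overlaps Foxj2 and had 15.8 in KO 1 and 9.05 in WT 1 alone. Most Gas6 regions also lie in the annotated span of Tmem255b, among them 13461850 to 13462673 on chromosome 8, which had 10.0 and 25.8 in PLX chow, 12.4 and 19.6 in control chow, 37.9 and 29.5 in KO and 24.0 and 13.9 in WT, with all KO ranks above all WT ranks. The mean rank difference there was 5.9 for KO minus WT and −21.2 for dLGN minus sections, with every dLGN rank below every section rank. Which gene such a region serves was not tested.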
